A study of Rattus norvegicus with 12 samples.

Results

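The nuclear-encoded subunits of the oxidative phosphorylation machinery were followed in the rat brain after middle cerebral artery occlusion. They were every probe set that the array annotation assigns to exactly 1 gene with a subunit symbol (Nduf with a letter a, b, c, s or v and a number, Sdha to Sdhd, names starting with Uqcr or Atp5, Cyc1, Cycs, and Cox4 to Cox8). The rule found 89 probe sets of 80 genes, among 20826 probe sets of 14217 genes with an assignment to 1 gene. Complex I held 38 of them (35 genes), complex II 5 (4 genes), complex III 9 (8 genes), complex IV 17 (17 genes) and complex V 20 (16 genes). Cytochrome c, the product of Cycs, had 0 probe sets of its own. A further 9 probe sets that pair a subunit with near copies of it were not analysed.

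Male Sprague-Dawley rats, 8 weeks old, underwent middle cerebral artery occlusion with reperfusion (MCAO, 7 rats), which blocks and then restores flow in the artery that supplies much of the hemisphere, or a Sham operation (5 rats). Total RNA came from the left hemisphere, taken 24 h after flow was restored, and each rat gave 1 array. The labels state neither the side occluded nor how long flow was blocked, and the hemisphere was used whole, so injured and spared tissue were read together. Nothing in the labels describes a genetic change in either group.

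The respiratory chain sits in the inner mitochondrial membrane. Complexes I (NADH dehydrogenase) and II (succinate dehydrogenase) pass electrons to ubiquinone, complex III hands them to cytochrome c, and complex IV (cytochrome c oxidase) gives them to oxygen, while complexes I, III and IV pump protons and complex V (ATP synthase) uses that gradient to make ATP. The complexes combine core subunits, which hold most redox groups or catalytic sites, with accessory subunits around them. Counted as core here were Ndufs1, Ndufs3, Ndufs7, Ndufs8, Ndufv1, Ndufv2, Sdha, Sdhb, Uqcrfs1, Cyc1, Atp5f1a, Atp5f1b and Atp5f1c. All other members were counted as accessory, among them Sdhc, Sdhd, Atp5mc3 and Atp5pd, so the division is partly a choice. It was made with earlier results of these data known. Neurons draw most of their ATP from this chain, and mitochondrial DNA encodes further core subunits of complexes I, III, IV and V.

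Of the subunit probe sets, 33 were near-constant, that is, their SD over the 12 arrays was under 0.01 on the log2 scale of the deposited values. They could show no change of useful size, since their largest difference between groups was 0.0021 log2 units. Of these, 2 were called lower and 0 higher by limma (Ndufa9 and 1 probe set of Atp5me, both with a change of -0.00019 log2 units), against 9.11% lower, 9.11% higher and 18.2% in all among near-constant probe sets tested. A total of 25 genes were read by near-constant probe sets only. Near-constant probe sets made up 58.9% of all probe sets with 1 gene, so this is a property of the deposited table as a whole. The other 56 probe sets, of 55 genes, are called varying below, and the results rest on them. All 56 passed the filter on low values, while Cox6b2 and Cox8b, both near-constant, did not and were not tested. Whether a probe set counts as varying was judged on the same values as the comparison, so a difference between groups can itself have placed one there.

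In the division used here, the subunits called lower after MCAO were all core subunits, and those called higher were all accessory subunits. Of 10 varying core probe sets, 5 fell after MCAO and 0 rose, with a median change of -0.08 log2 units. Of 46 varying accessory probe sets, 7 rose and 0 fell, with a median change of 0.14. At an unadjusted limma p under 0.05, 5 core probe sets were lower and 1 higher, and 17 accessory probe sets were higher and 0 lower. Other scalings of the arrays kept 5 core subunits lower and gave 5 to 14 accessory subunits higher and 1, Ndufb4, lower. Under those scalings, 74.7% to 75.2% of all varying probe sets were called in either direction. All were small changes: the largest of them, in Cox6a2, was 1.25-fold. Together 21.4% of the varying subunit probe sets were called in either direction by limma (adjusted p under 0.05), against 67.7% of all 8438 varying probe sets tested. The background was 37.0% for calls of higher level and 30.7% for calls of lower level. Over all 17238 probe sets tested, near-constant ones included, 42.4% were called, 22.7% higher and 19.7% lower. The median size of change, sign ignored, was 0.14 log2 units for the subunits and 0.29 for all varying probe sets. In sign, 47 of the 56 differences were positive and 9 negative, 83.9% positive against 54.4% over all varying probe sets. These shares describe the subunits beside the table and were not tested. In RNA from a whole hemisphere, fewer cells of a type and less RNA per cell cannot be told apart.

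**Figure D1:**
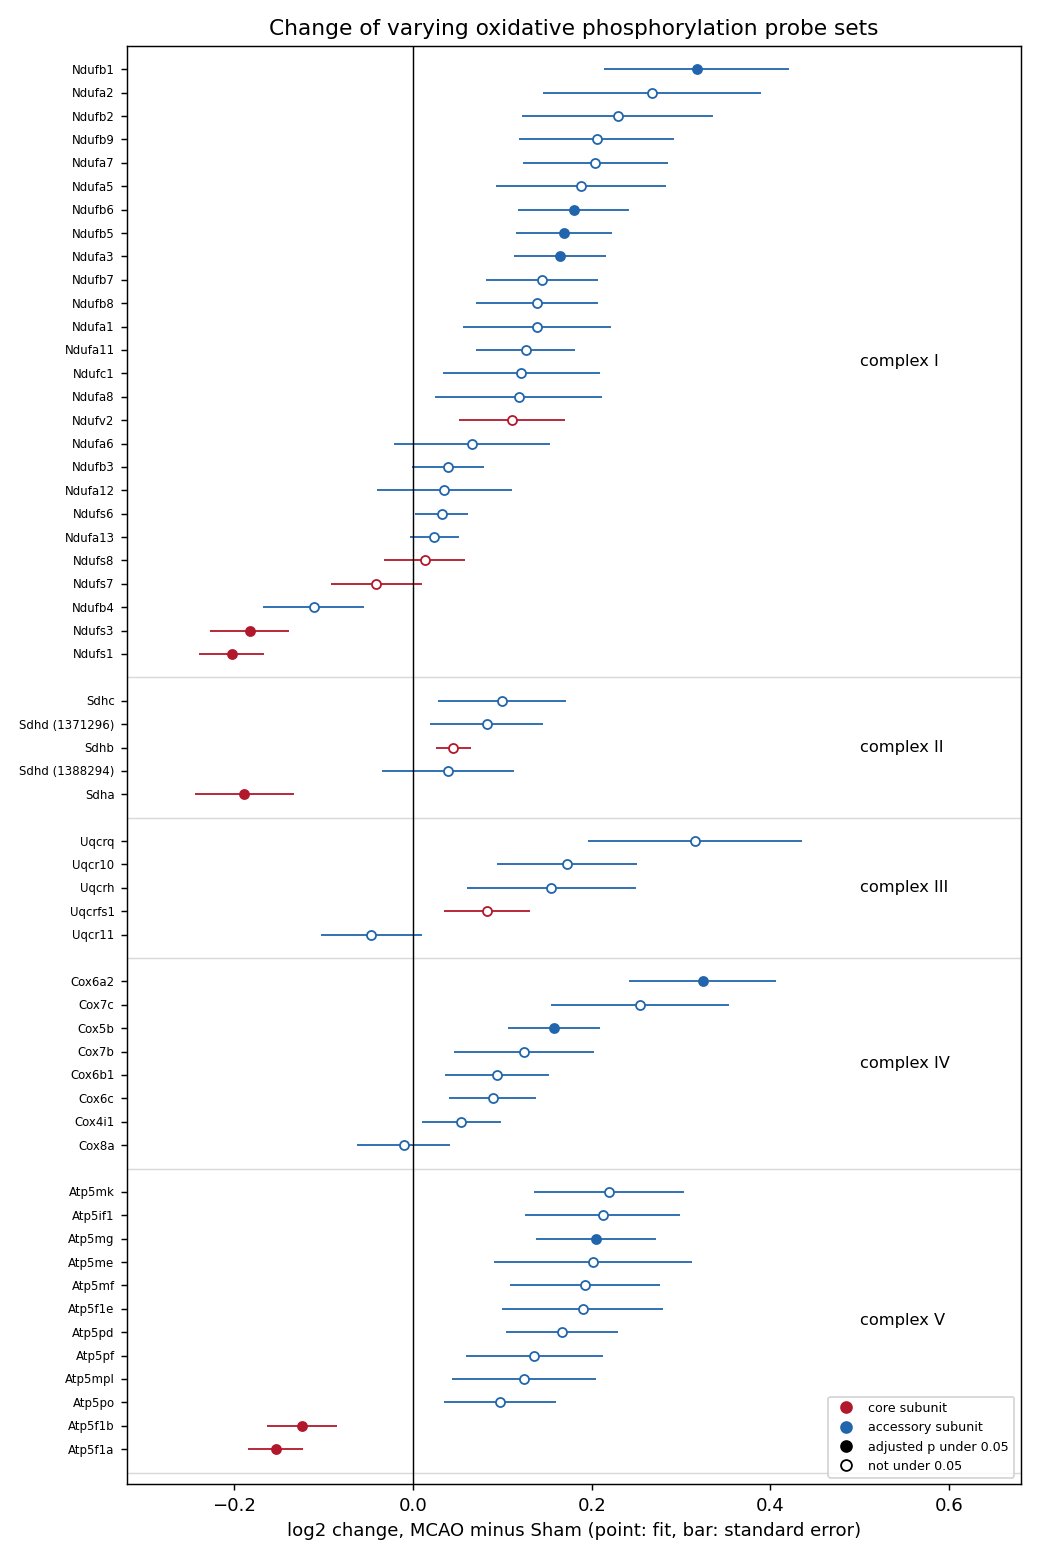
Each point is the log2 change (MCAO minus Sham) of 1 varying subunit probe set with its standard error as a bar, grouped by complex, core subunits in red, accessory subunits in blue and filled points for an adjusted p under 0.05. The 5 called lower are all core subunits and the 7 called higher are all accessory subunits.

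Ndufs1, the largest iron-sulfur subunit of complex I, stood lower in every MCAO rat than in any Sham rat. Its log2 signal had a lowest value of 10.36, a median of 10.47 and a highest value of 10.59 in the MCAO rats, against 10.64, 10.69, 10.73, 10.67 and 10.63 in the Sham rats. The change was -0.20 ± 0.04 log2 units (SE), which is 0.869-fold, with a limma adjusted p of 0.0027. Groups were fully apart in this direction for 2 of the 56 varying subunit probe sets, and for 14.2% of all varying probe sets. In the other direction, all MCAO rats above all Sham rats, the counts were 0 of 56 and 18.2%.

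The other was Atp5f1a, the alpha subunit of the ATP synthase head. Its signal ran over 11.65, 11.73 and 11.81 (lowest, median, highest) in the MCAO rats, against 11.85, 11.89, 11.92, 11.92 and 11.86 in the Sham rats. It fell by 0.15 ± 0.03 log2 units (SE, limma adjusted p = 0.004). Atp5f1b, the beta subunit that carries the catalytic sites, fell with it, by 0.12 ± 0.04 (adjusted p = 0.0262). Its signal was 12.21, 12.29 and 12.45 in the MCAO rats, against 12.40, 12.45, 12.42, 12.42 and 12.41 in the Sham rats, and 1 MCAO rat, MCAO 2, reached the Sham range.

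Ndufs3, a core subunit of the ubiquinone-binding part of complex I, had a signal of 10.06, 10.08 and 10.26 in the MCAO rats (lowest, median, highest) and of 10.24, 10.32, 10.33, 10.36 and 10.33 in the Sham rats. MCAO 4 and MCAO 7 overlapped Sham 1, the lowest Sham rat. It fell by 0.18 ± 0.04 (SE, limma adjusted p = 0.00883). Sdha, the flavoprotein of complex II that oxidises succinate, had a signal of 10.36, 10.49 and 10.69 in the MCAO rats and of 10.63, 10.74, 10.71, 10.58 and 10.78 in the Sham rats. MCAO 4 alone among MCAO rats lay inside the Sham range, and the fall was 0.19 ± 0.06 (adjusted p = 0.0198).

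The other 5 varying core probe sets were not called by limma. Ndufs7 and Ndufs8, iron-sulfur subunits beside the ubiquinone site, had changes of -0.04 ± 0.05 (SE, adjusted p = 0.557) and 0.01 ± 0.05 (adjusted p = 0.856). Ndufv2, an iron-sulfur subunit of the NADH-oxidising tip, had a change of 0.11 ± 0.06 (limma adjusted p = 0.157). Sdhb, which relays electrons from Sdha through its iron-sulfur clusters, had one of 0.05 ± 0.02 (limma adjusted p = 0.0918), and Uqcrfs1, the Rieske iron-sulfur protein of complex III, one of 0.08 ± 0.05 (limma adjusted p = 0.195). Their 95% intervals for the change reached -0.15 for Ndufs7 and 0.24 for Ndufv2 at the widest. The remaining core subunits Ndufv1, Cyc1 (cytochrome c1) and Atp5f1c (the gamma shaft of the ATP synthase) were near-constant.

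**Figure D2:**
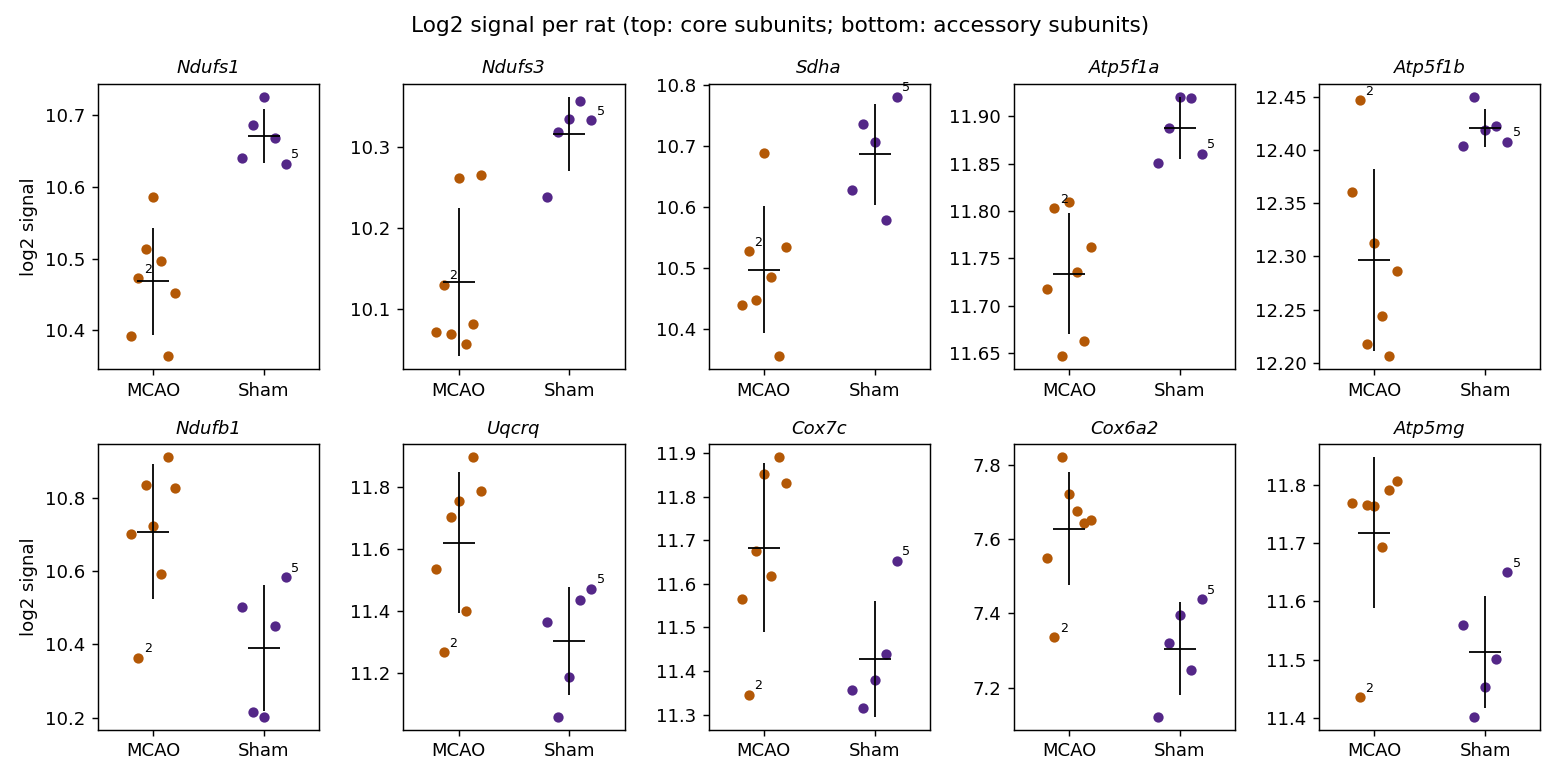
The log2 signal of each rat is shown for the 5 core subunits called lower (top) and for 5 accessory subunits (bottom), of which Uqcrq and Cox7c were not called. MCAO rats stand left of Sham rats, and lines give each group's mean and SD. The small digits mark MCAO 2 and Sham 5, and among the 10 panels the groups are fully apart for Ndufs1 and Atp5f1a alone.

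Promoters of subunit genes are known for sites of NRF1, GABPA (an ETS factor), YY1 and the estrogen-related receptor, all regulators of respiratory genes. RefSeq promoters (GRCr8), 300-base windows that span each gene's start and lie mostly before it, were matched for 71 of the 80 genes, and both strands were searched for each motif without mismatches. The 5 below are shown because their genes were called different and hold a match: Ndufs1 (chr9:72073556-72073855, minus strand), Sdha (chr1:30764303-30764602, plus strand) and Atp5f1a (chr18:73567287-73567586, plus strand) fell, and Ndufa3 (chr1:74515509-74515808, minus strand) and Cox5b (chr9:46417587-46417886, plus strand) rose. Capitals mark CCGGAAGT (ETS) or its reverse complement in Ndufs1, Atp5f1a and Cox5b, the NRF1 consensus in Sdha and AAGATGGC (YY1) in Ndufa3, and each is written 5′ to 3′ on the gene's strand.
Ndufs1: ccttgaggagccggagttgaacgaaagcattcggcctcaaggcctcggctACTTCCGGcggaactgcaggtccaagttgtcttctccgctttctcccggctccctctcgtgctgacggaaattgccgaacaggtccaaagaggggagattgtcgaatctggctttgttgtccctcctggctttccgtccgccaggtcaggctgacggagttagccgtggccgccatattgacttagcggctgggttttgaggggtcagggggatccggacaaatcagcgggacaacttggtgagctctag
Sdha: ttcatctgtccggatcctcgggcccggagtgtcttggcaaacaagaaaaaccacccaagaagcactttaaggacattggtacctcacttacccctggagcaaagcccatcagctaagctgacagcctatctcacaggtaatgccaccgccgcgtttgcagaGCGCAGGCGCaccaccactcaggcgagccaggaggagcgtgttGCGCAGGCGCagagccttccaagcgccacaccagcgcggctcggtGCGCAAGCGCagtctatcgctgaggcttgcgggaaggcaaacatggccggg
Atp5f1a: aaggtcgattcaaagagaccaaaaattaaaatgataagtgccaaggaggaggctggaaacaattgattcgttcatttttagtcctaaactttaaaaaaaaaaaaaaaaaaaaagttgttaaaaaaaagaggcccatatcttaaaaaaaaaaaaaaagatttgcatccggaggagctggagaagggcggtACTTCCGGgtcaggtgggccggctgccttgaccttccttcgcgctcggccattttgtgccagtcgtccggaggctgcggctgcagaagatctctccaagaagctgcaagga
Ndufa3: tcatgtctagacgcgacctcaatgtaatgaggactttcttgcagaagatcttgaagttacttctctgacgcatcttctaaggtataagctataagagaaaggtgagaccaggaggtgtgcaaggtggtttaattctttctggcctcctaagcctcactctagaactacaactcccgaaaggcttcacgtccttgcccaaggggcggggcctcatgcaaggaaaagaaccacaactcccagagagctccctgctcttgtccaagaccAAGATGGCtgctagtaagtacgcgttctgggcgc
Cox5b: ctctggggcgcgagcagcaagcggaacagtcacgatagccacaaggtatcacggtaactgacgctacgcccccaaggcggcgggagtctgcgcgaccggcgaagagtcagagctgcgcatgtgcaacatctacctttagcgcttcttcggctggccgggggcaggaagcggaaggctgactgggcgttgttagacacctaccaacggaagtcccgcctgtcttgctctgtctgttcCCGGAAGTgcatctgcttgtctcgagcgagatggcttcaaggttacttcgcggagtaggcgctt
Genes that fell and a gene that rose thus hold the same ETS letters, and Sdha holds the NRF1 consensus 3 times. The other subunit genes called different hold no match to any motif searched. They are Ndufs3 and Atp5f1b, which fell, and Ndufb1, Ndufb5, Ndufb6, Cox6a2 and Atp5mg, which rose. Over the family, the NRF1 consensus was in 13 of 71 promoters (18.3%, against 4.25% of all 33469 promoters), ETS letters in 8 (11.3%, against 3.81%), YY1 letters in 16 (22.5%, against 3.17%) and estrogen-related receptor letters (TCAAGGTCA) in 2 (2.82%, against 0.433%). A match is a description of the sequence, not a site bound by the factor.

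Among accessory subunits, Cox6a2, the form of cytochrome c oxidase subunit 6A best known from heart and skeletal muscle, changed most. Its signal was 7.34, 7.65 and 7.82 in the MCAO rats (lowest, median, highest), against 7.12, 7.32, 7.40, 7.25 and 7.44 in the Sham rats. It rose by 0.32 ± 0.08 log2 units (SE), 1.25-fold (limma adjusted p = 0.011), and only MCAO 2 fell inside the Sham range. Cox5b, a zinc-binding accessory subunit of the same complex, rose by 0.16 ± 0.05 (adjusted p = 0.0316). Its signal was 11.64, 11.82 and 11.91 in the MCAO rats and 11.70, 11.52, 11.61, 11.64 and 11.76 in the Sham rats. Here MCAO 2 and MCAO 5 overlapped the Sham rats.

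In complex I, 4 accessory subunits of the membrane arm, the part that pumps protons, rose. Ndufb1 rose by 0.32 ± 0.10 (SE, limma adjusted p = 0.0314), with a signal of 10.36, 10.72 and 10.91 in the MCAO rats and of 10.50, 10.22, 10.20, 10.45 and 10.58 in the Sham rats. MCAO 2 lay inside the Sham range and the other 6 MCAO rats above it. Ndufb6 rose by 0.18 ± 0.06 (adjusted p = 0.0391), Ndufb5 by 0.17 ± 0.05 (adjusted p = 0.0291) and Ndufa3 by 0.16 ± 0.05 (adjusted p = 0.026). By name group, 3 of 9 varying Ndufb subunits rose (median change 0.17) and 1 of 10 varying Ndufa subunits (median 0.13). Ndufa2 (0.27 ± 0.12, adjusted p = 0.101) and Ndufb2 (0.23 ± 0.11, adjusted p = 0.11) had large differences but wide spread. Ndufb4, also in the membrane arm, had the lowest accessory value, -0.11 ± 0.06 (adjusted p = 0.139). The other 14 varying accessory probe sets of complex I were not called, with changes of 0.02 (Ndufa13) to 0.21 (Ndufb9). Ndufa4, counted here by its name although it is now regarded as part of complex IV, and its paralog Ndufa4l2 were near-constant.

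Complex II differed from the larger complexes in make-up, with no mitochondrial DNA-encoded subunit and just 4 proteins, all measured by varying probe sets. Beside Sdha, called lower, and Sdhb, its membrane anchors were not called by limma: Sdhc had a change of 0.10 ± 0.07 (adjusted p = 0.291), and both probe sets of Sdhd had changes of 0.08 ± 0.06 (adjusted p = 0.324) and 0.04 ± 0.07 (adjusted p = 0.713). The median over its 5 probe sets was 0.05, beside 0.06 over all varying probe sets, and turned to -0.0072 when the array medians were set equal.

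In complex III, 0 of 5 varying probe sets were called by limma, against 67.7% of all varying probe sets. At an unadjusted limma p under 0.05 there was 1, and the median change was 0.15. Uqcrq, a small ubiquinone-binding subunit, had the highest value, 0.32 ± 0.12 (SE, adjusted p = 0.0552). Its signal was 11.27, 11.70 and 11.90 in the MCAO rats, against 11.37, 11.06, 11.19, 11.43 and 11.47 in the Sham rats, so MCAO 2 and MCAO 5 overlapped the Sham rats. The small subunits Uqcr10 (0.17 ± 0.08, adjusted p = 0.102) and Uqcr11 (-0.05 ± 0.06, adjusted p = 0.545), and the hinge protein Uqcrh beside cytochrome c1 (0.15 ± 0.09, adjusted p = 0.215), did not pass either. Uqcrc1 and Uqcrc2, the large matrix-facing proteins, were near-constant on all their probe sets.

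Of the 8 varying probe sets of complex IV, 2 rose (Cox6a2 and Cox5b) and 0 fell, with a median of 0.11. Over all varying probe sets, 37.0% rose and 30.7% fell. Cox7c, a small membrane subunit, missed the limit with 0.25 ± 0.10 (SE, limma adjusted p = 0.0614). Its signal was 11.35, 11.67 and 11.89 in the MCAO rats and 11.36, 11.32, 11.38, 11.44 and 11.65 in the Sham rats, where Sham 5 reached above MCAO 1, MCAO 2 and MCAO 5. Cox7b (0.12), Cox6b1 (0.09), Cox6c (0.09), Cox4i1 (0.05) and Cox8a (-0.01) lay nearer 0, with limma adjusted p between 0.168 (Cox6c) and 0.896 (Cox8a). Isoforms could hardly be compared, because Cox6a1, the general partner of Cox6a2, and Cox4i2, the isoform linked to low oxygen, were near-constant. So were Cox5a, Cox6b2, Cox6c-ps1, Cox7a1, Cox7a2l, Cox7b2 and Cox8b.

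Of the 12 varying probe sets of complex V, 2 fell (Atp5f1a and Atp5f1b, both in the catalytic head) and 1 rose. Over all varying probe sets, 30.7% fell and 37.0% rose. The subunit that rose was Atp5mg, subunit g of the membrane part, by 0.20 ± 0.07 (SE, limma adjusted p = 0.0328). Its signal was 11.44, 11.77 and 11.81 in the MCAO rats and 11.56, 11.40, 11.45, 11.50 and 11.65 in the Sham rats, and MCAO 2 alone lay inside the Sham range. Atp5mk, a small membrane subunit also called DAPIT, had a change of 0.22 ± 0.08 (adjusted p = 0.0565), and Atp5pd, subunit d of the side stalk, of 0.17 ± 0.06 (adjusted p = 0.0546). Atp5if1, the inhibitor that blocks ATP hydrolysis when the gradient fails, had 0.21 ± 0.09 (adjusted p = 0.0722) on its varying probe set and was near-constant on its other probe sets. The changes of its 10 varying accessory probe sets were all positive in sign (0.10 to 0.22, median 0.19), and those of both varying core probe sets were negative. Atp5mc3, which encodes the proton-carrying ring, was near-constant.

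**Figure D3:**
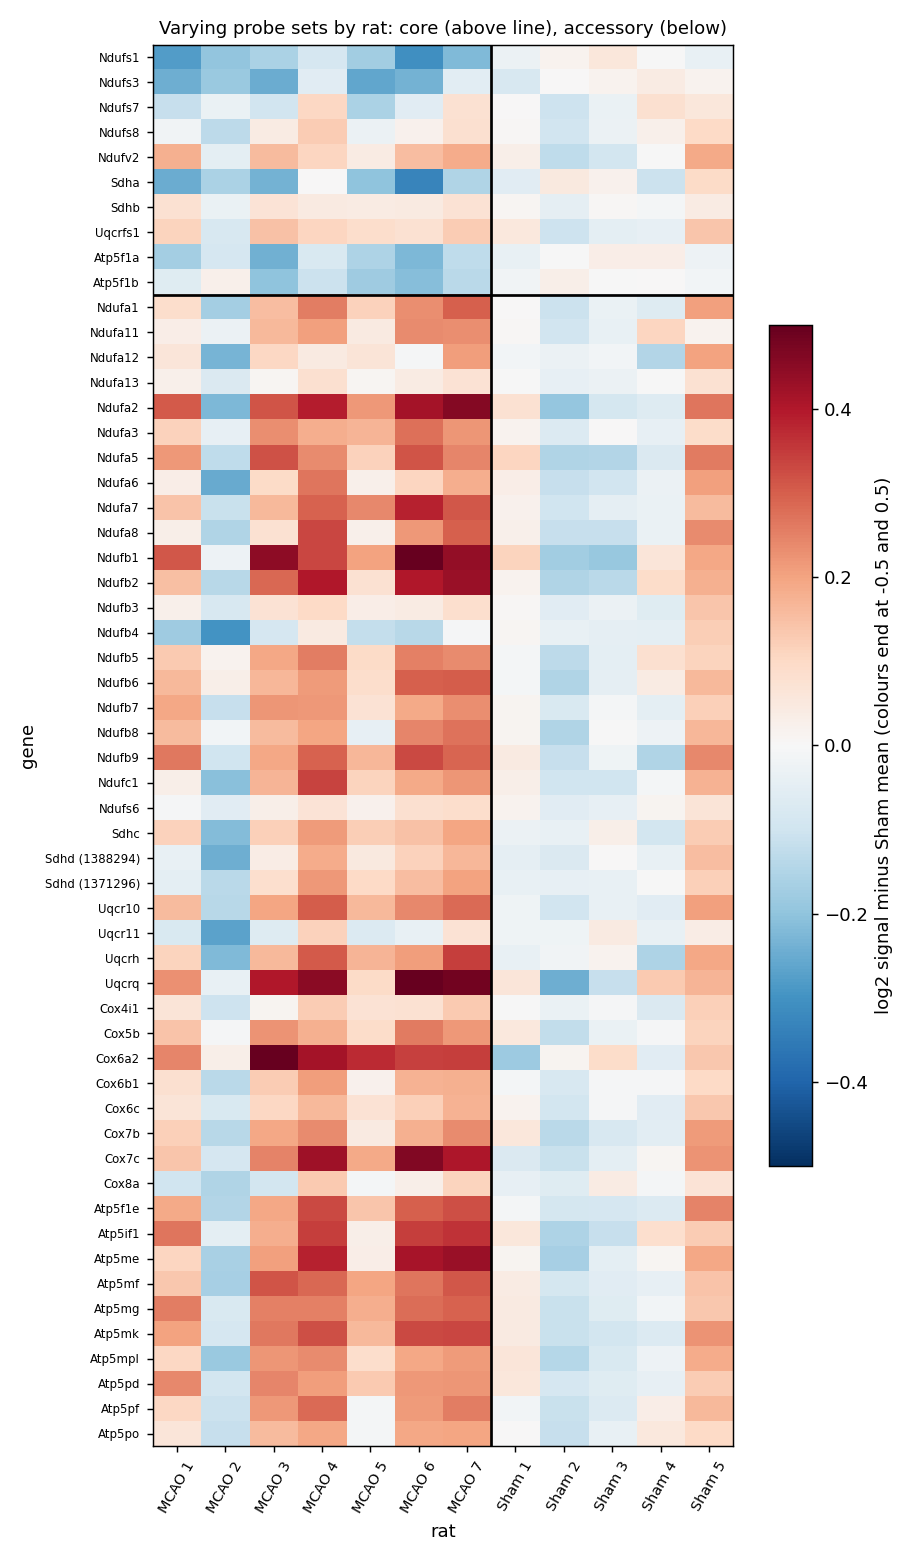
Colours give each varying subunit probe set's deviation from its Sham mean (log2 units) in every rat, MCAO rats left of Sham rats, with core subunits above the horizontal line and accessory subunits below it. MCAO 2 is the lowest MCAO rat in 45 and Sham 5 the highest Sham rat in 44 of the 46 accessory rows.

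A pair of rats stood apart in the accessory subunits. MCAO 2 was the lowest of the MCAO rats in 45 of the 46 varying accessory probe sets, and Sham 5 was the highest of the Sham rats in 44 of 46. The median deviation from the Sham mean over the accessory probe sets was -0.12 log2 units in MCAO 2, with 0.18 as the median of the MCAO rats and 0.24 as their highest. It was 0.16 in Sham 5, with -0.03 as the median of the Sham rats and -0.10 as their lowest. The core subunits divided the rats in this way less often. MCAO 2 was lowest in 4 and Sham 5 highest in 5 of their 10 probe sets, still more than any other rat of its group. For MCAO 2 these were Ndufs8, Ndufv2, Sdhb and Uqcrfs1, the core probe sets with a positive change. Core medians ran from -0.16 to 0.02 in the MCAO rats and from -0.02 to 0.05 in the Sham rats. The core median minus the accessory median of each rat lay between -0.36 and 0.03 (MCAO 2) in the MCAO rats and between -0.11 (Sham 5) and 0.08 in the Sham rats, so MCAO 2 alone overlapped the Sham rats.

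Accessory probe sets varied together from rat to rat. The median Pearson correlation between pairs of them was 0.89 over the 7 MCAO rats and 0.86 over the 5 Sham rats. Between pairs of core probe sets it was 0.21 and 0.11, and between a core and an accessory probe set 0.42 and 0.44. By these medians, core probe sets followed the accessory ones more closely than they followed each other. The medians do not describe every core probe set. Atp5f1b, called lower, had its highest MCAO signal (12.45) in MCAO 2, the rat with the lowest accessory median (-0.12). Probe sets on an array share its RNA, labelling and scaling, and these correlations are descriptions of few rats.

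MCAO 2 was also the lowest MCAO rat, and Sham 5 the highest Sham rat, in the 5S rRNA control and in ribosomal proteins. Among the other rats the order differed: MCAO 7 had the highest accessory median but a 5S signal of 8.83, below the MCAO median. The array's 5S rRNA control read 8.19 (MCAO 2), 8.93 and 9.28 in the MCAO rats (lowest, median, highest) and 8.17, 7.45, 7.19, 7.50 and 8.27 (Sham 5) in the Sham rats. Over 47 varying probe sets of cytosolic ribosomal proteins, chosen after values were seen, the median deviation from the Sham mean was 0.10 (MCAO 2) to 0.66 in the MCAO rats and -0.11 to 0.22 (Sham 5) in the Sham rats. The 3′ minus 5′ signal of beta-actin, a measure of RNA integrity, was 1.36 ± 0.07 in the MCAO rats and 1.43 ± 0.03 in the Sham rats (SD, n = 7 and 5, two-sided exact permutation p = 0.0732). The part of these signals in the accessory subunits' changes was not tested.

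**Figure D4:**
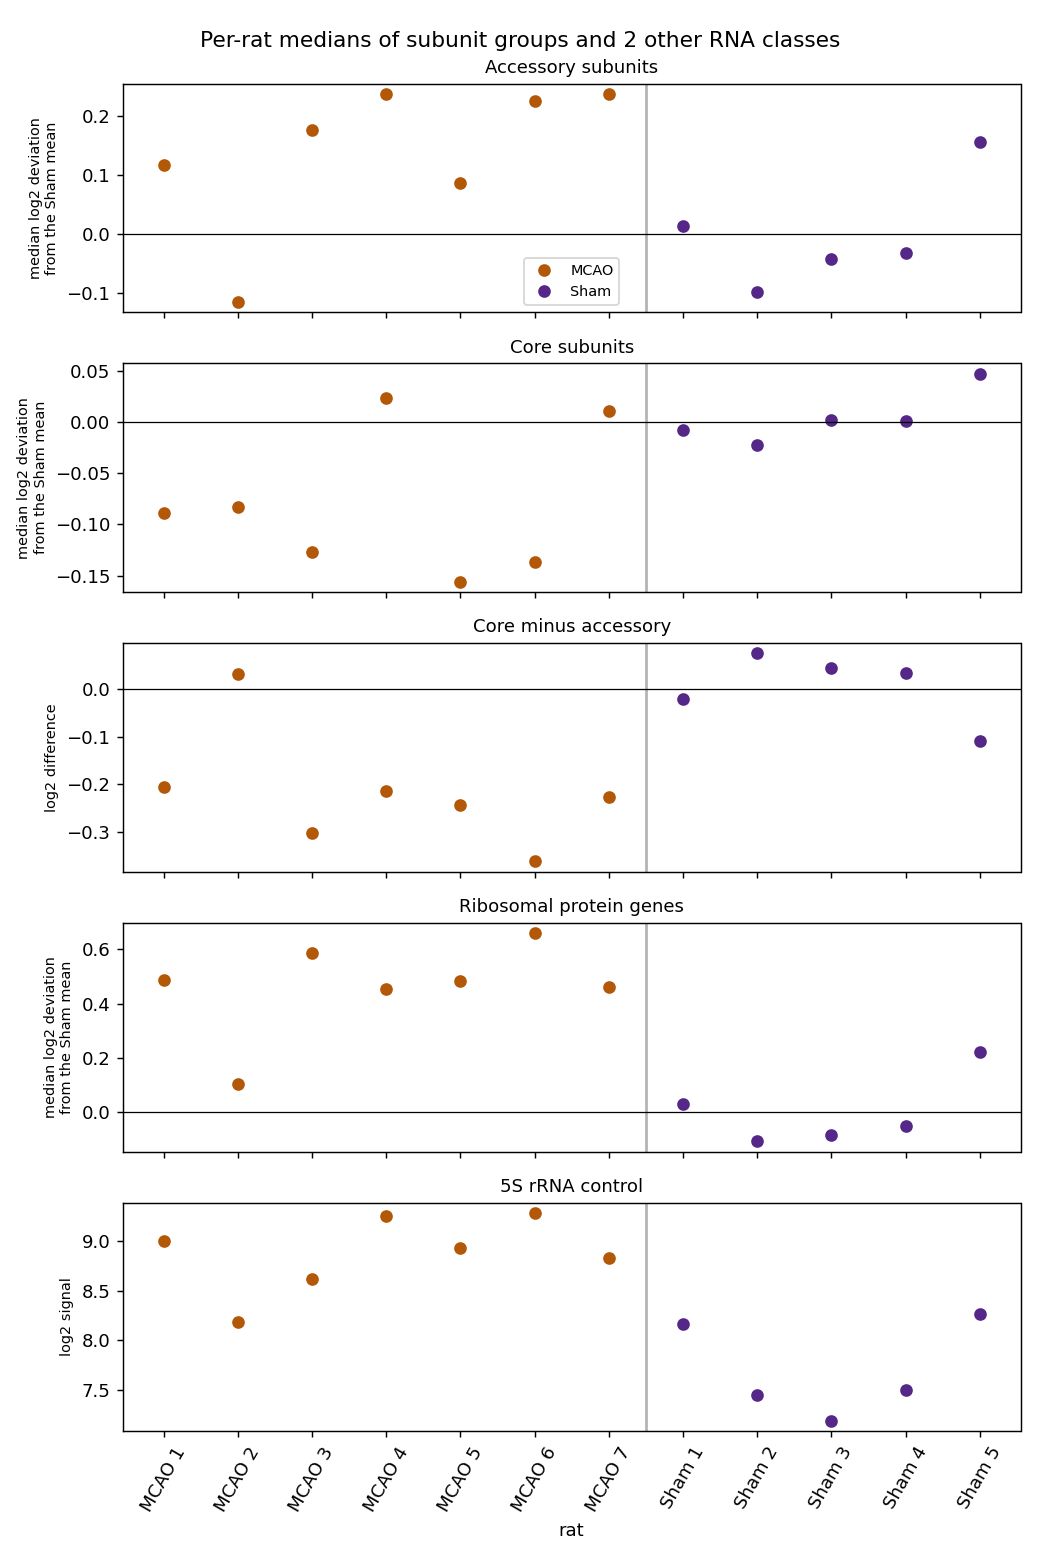
Each point is 1 rat, MCAO rats left of Sham rats, and the panels give, from the top, the median deviation from the Sham mean (log2 units) over accessory and over core subunits, core minus accessory, the same deviation over ribosomal protein genes, and the log2 signal of the 5S rRNA control. Accessory medians overlap through MCAO 2 at -0.12 and Sham 5 at 0.16.

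The counts depended on single rats. Without MCAO 2, limma called 33 of the 56 varying subunit probe sets higher (31 accessory, and Sdhb and Uqcrfs1 among the core) and 5 lower, against a background of 43.1% and 33.6%. They included all 7 and all 5 called in the full set. By complex, 13 of 26 were then higher in complex I, 2 of 5 in complex II, 4 of 5 in complex III, 5 of 8 in complex IV and 9 of 12 in complex V. Without Sham 5, 16 were higher, with 64.7% of all varying probe sets called in either direction. Without MCAO 2 and Sham 5 together, 44 were higher (41 accessory, and Ndufv2, Sdhb and Uqcrfs1) and 4 lower, with a background of 42.0% and 32.1%. Both rats were picked as the extreme ones in the accessory subunits. Leaving them out was therefore bound to widen the accessory difference, and these counts are no check of it. With another rat left out, the higher count was 7 (MCAO 5), 5 (MCAO 4 or Sham 1), 4 (MCAO 1), 2 (MCAO 6, MCAO 7 or Sham 4) or 1 (MCAO 3, Sham 2 or Sham 3). The lower count was 3 without Sham 2 and 4 or 5 without any other rat. The share of all varying probe sets called moved too, from 55.7% (without Sham 2) to 76.6% (without MCAO 2). Of 25 alternative settings, Ndufs1, Ndufs3 and Atp5f1a stayed called in all, Cox6a2 in 24, Sdha in 22, Atp5f1b and Ndufa3 in 20, Ndufb1, Ndufb5 and Cox5b in 17, Atp5mg in 15 and Ndufb6 in 14.

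Genes that build the complexes or regulate them were read from lists, in the same limma test and counting varying probe sets. Over all varying probe sets, 37.0% were called higher and 30.7% lower. Among regulators of mitochondrial biogenesis, 8 of 9 varying probe sets rose and 0 fell (median change 0.31). They read 6 of the 16 listed genes, and 17 of the list's 26 probe sets were near-constant. Pprc1, a coactivator related to PGC-1, rose by 0.40 ± 0.07 (SE, adjusted p = 0.0029), and every MCAO rat was above every Sham rat. Yy1, whose letters were searched above, rose by 0.31 ± 0.08 (adjusted p = 0.00942). Among mitochondrial protein import factors, 11 of 15 varying probe sets, of 12 genes, rose and 1 fell (median 0.23). Tomm5, a small subunit of the outer-membrane pore, rose by 0.55 ± 0.10 (adjusted p = 0.00351), and Tomm70, a receptor for carrier proteins, fell by 0.29 ± 0.04 (adjusted p = 0.00127). The import count was 5 without Sham 2 and 8 to 13 without any other rat.

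Of carriers, channels and uncoupling proteins, 7 of 9 varying probe sets, of 6 genes, fell and 1 rose (median -0.27), against 30.7% and 37.0% over all varying probe sets. Ckmt1, the mitochondrial creatine kinase that makes phosphocreatine from the ATP produced, fell by 0.50 ± 0.09 (limma adjusted p = 0.00247). Slc25a14, a carrier known as the brain uncoupling protein, fell by 0.43 ± 0.07 (adjusted p = 0.00176). The count lower was 3 without Sham 3 or Sham 4, 4 without MCAO 3, MCAO 5, MCAO 6, MCAO 7 or Sham 2, and 5 to 7 without any other rat.

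Few assembly factors were called, beside 37.0% higher and 30.7% lower over all varying probe sets. Complex I factors had 1 of 6 higher and 0 lower (Ndufaf4, 0.31 ± 0.09, limma adjusted p = 0.0237; Ndufaf8, 0.24 ± 0.12, adjusted p = 0.118). Complex II factors had 0 of 2 called (Sdhaf4, 0.02, and Sdhaf3, 0.00, which was called lower with equal array medians), and complex III factors 0 of 3 (Uqcc2, 0.14, and Uqcc3, 0.09). Without MCAO 2, the higher counts were 2 for complex I and 2 for complex III factors, and the complex I count was 0 without Sham 2, Sham 3 or Sham 4 and 2 without Sham 5. Complex IV factors had 3 of 13 higher and 2 lower, and the higher count was 7 without MCAO 2, 4 without Sham 5 and 1 or 2 without any other rat. The lower count was 2 without MCAO 4 or Sham 1 and 1 without any other rat. Higd1a, a hypoxia-inducible protein of the oxidase, rose by 0.57 ± 0.09 (adjusted p = 0.00179), and Cox15, which makes heme A, fell by 0.24 ± 0.05 (adjusted p = 0.00512). Of 3 complex V factors, Atpaf1, the chaperone of the beta subunit, fell by 0.32 ± 0.09 (adjusted p = 0.016), and Dmac2l had 0.04. For subunits encoded by mitochondrial DNA, 2 probe sets were on the array and 1 varied. That was COX1, the catalytic subunit of complex IV, with a change of -0.04 ± 0.13 (adjusted p = 0.842).

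Markers of the cells in the hemisphere were counted the same way, beside 37.0% higher and 30.7% lower over all varying probe sets. Of 22 varying neuron marker probe sets, 13 fell and 1 rose (median -0.25), with all 16 listed genes measured. Stmn2 fell by 0.28 ± 0.04 and Stmn3 by 0.26 ± 0.05 (SE, limma adjusted p = 0.00149 and 0.00373). Median deviations over the list ran from -0.41 to -0.11 in the MCAO rats and from -0.06 to 0.03 in the Sham rats. Striatal projection neuron markers fell on 15 of 18 (median -0.63), with the strongest limma statistics in Drd2 (-0.84) and Adora2a (-0.82) and rat medians of -0.81 to -0.46 in MCAO and -0.07 to 0.07 in Sham. Reactive astrocyte markers rose on 9 of 9 (median 2.29; Hspb1 4.54, Gfap 1.91), with 1.58 to 2.79 in MCAO and -0.06 to 0.07 in Sham. Phagocyte markers rose on 10 of 10 (median 1.14; Lgals3 3.11, Gpnmb 2.69), with 0.81 to 1.45 in MCAO and -0.04 to 0.12 in Sham. Infiltrating leukocyte markers rose on 5 of 5 (median 0.99; S100a9 1.65, Plac8 1.40), with 0.66 to 1.75 in MCAO and -0.05 to 0.04 in Sham. Astrocyte markers had 4 higher and 7 lower of 18 (median -0.16), with changes of -0.96 to 0.75. The strongest limma statistics were both on probe sets of Glul (0.63 and 0.65), against the negative sign of 12 of the 18. Rat medians ran from -0.38 to 0.12 in MCAO and from -0.08 to 0.02 in Sham, and the lower count was 11 without MCAO 4. Oligodendrocyte markers had 1 higher and 3 lower of 10 (Cnp -0.21, Opalin -0.53), with -0.30 to 0.03 in MCAO and -0.17 to 0.14 in Sham, and 1 lower without Sham 2, Sham 3 or Sham 4. Endothelial markers had 4 higher and 2 lower of 7 (Flt1 0.36, Slco1a4 -0.77), with 0.05 to 0.52 in MCAO and -0.09 to 0.10 in Sham. The part of the cell mixture in the fall of the core subunits was not tested.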

How the data were processed

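Per the labels, each rat's total RNA (100 ng) was turned into biotin-labelled cRNA and hybridised. The log2 values were used as the authors deposited them, 1 per probe set and array, and their normalization is not given in the labels. The scale was judged from the range, since no log base is given, and array medians spanned 7.23 to 7.27. The software and background correction before deposit are not given in the sources. Gene names come from GEO's platform annotation.

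Values were tested with limma 3.58.1 (lmFit, eBayes with an intensity trend) in R 4.3.3, MCAO against Sham, two-sided. A total of 17238 probe sets entered, those whose value exceeded 6.61, the table's lower quartile, on 5 or more arrays. P-values were adjusted over all of them by Benjamini-Hochberg, with a threshold of 0.05. Members, roles and lists were chosen with earlier results of these data known. The script was tested on simulated data. The 57 control probe sets of MCAO 6 lay 12 positions off those of the other arrays and were realigned for the control signals, and 40 of 40 near-constant controls then matched within 0.05, against 0 before. Gene probe sets were not affected. Array number limits the precision. Each array is a separate rat, per the design text.

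Genes named are, per complex, the 3 largest positive and the 3 largest negative varying changes (fewer where there are fewer), all members of complexes with at most 8 varying probe sets, core subunits, isoforms and Atp5if1, and the 2 strongest genes per list. Ndufb5, Ndufb6, Ndufa3, Ndufa9, Ndufa13, Ndufb9, Atp5me and Atp5pd were named after their values were seen. Replicate numbers were not taken to pair rats. Alternatives changed normalization, filter, probe set choice, variance model, weights, block and rats included, and leaving out both MCAO 2 and Sham 5 was added after seeing the data.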

Additional observations from a re-analysis of the deposited data

Results flagged for a closer look

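A sample far from the others of its group was found in 16 of 136 groups examined over 68 probe sets (11.8%). Chance alone gives about 5% of groups such a sample. These probe sets share arrays, so these cases are not independent. MCAO 2 was far below the other MCAO rats in log2 signal for Ndufa2 (10.42), Sdhb (10.93), Sdhc (10.71), Uqcr10 (10.66), Uqcrfs1 (10.92), Uqcrh (11.12), Atp5mg (11.44) and Atp5mk (11.75). It was likewise low for the assembly factors Sdhaf3 (8.70) and Uqcc2 (9.83). Sham 5 was far above the other Sham rats for Sdhd (9.94), Uqcr10 (11.00) and Ndufaf8 (9.25). MCAO 1 was far below the other MCAO rats for COX1 (12.84). Among cell markers, MCAO 6 was high for Plac8 (8.88) and MCAO 4 for Slco1a4 (8.30).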

How the results depend on the processing

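The higher count of 7 was 14 after quantile normalization, 11 with equal array 75th percentiles, 16 with near-constant probe sets left out of the fit, 32 with array weights, 0 with the replicate block and 1 to 33 with 1 rat left out. With MCAO 2 and Sham 5 both left out, chosen after seeing the data as the extreme rats, it was 44. Over all varying probe sets, the share called in either direction was 67.7% as deposited. It was 74.7% with both of those scalings, 72.2% without near-constant probe sets, 84.2% with array weights and 41.5% with the block. With 1 rat left out the share was 55.7% to 76.6%, and with both left out 74.1%. The lower count of 5 was 3 with the replicate block and 3 to 5 with 1 rat left out. Sample titles do not state whether replicate numbers pair the rats. Same-numbered deviations correlated at 0.37, 0.58, -0.33, -0.04 and 0.19, and 3 of the 5 shared numbers matched their own Sham rat best. That is a hint from the data only and does not settle pairing. The block also leaves out MCAO 6 and MCAO 7, so fewer arrays were tested. Complex medians with 1 rat left out ran over 0.10 to 0.17 (I), 0.03 to 0.09 (II), 0.12 to 0.22 (III), 0.08 to 0.15 (IV) and 0.15 to 0.23 (V). Under equal array medians the median of complex II was -0.0072. That scaling put the median of all varying probe sets at 0.0039, against 0.056 as deposited. Near-zero changes that turned sign were Ndufs8 (quantile -0.013, equal medians -0.039, equal 75th percentiles -0.0089, block -0.0022, 1 rat left out -0.011 to 0.038), Sdhb (equal medians -0.0072), a probe set of Sdhd (equal medians -0.013, block -0.0017) and Cox8a (1 rat left out -0.034 to 0.013, both left out 0.0298). So did Sdhaf4 (equal medians -0.035, equal 75th percentiles -0.0041, block -0.016, 1 rat left out -0.038 to 0.083), Sdhaf3 (quantile -0.017, equal medians -0.051, equal 75th percentiles -0.021, block -0.0011, 1 rat left out -0.0018 to 0.0062), Dmac2l (quantile -0.012, equal medians -0.015) and COX1 (1 rat left out -0.066 to 0.065). None of these was called in the values as deposited with all rats, but Sdhaf3 was called lower under equal medians (limma adjusted p = 0.000336) and higher, by 0.0097, with both left out (limma adjusted p = 0.0236). Sdhb and that probe set of Sdhd were called higher with both left out too, and Sdhb also with array weights and without MCAO 2. The causes were not tested. Under quantile normalization, equal medians and equal 75th percentiles, 1 accessory subunit, Ndufb4, was called lower. Of all varying probe sets, 74.7%, 75.2% and 74.7% were called in either direction under these settings. Array number limits small changes, and 25 of the 80 genes were read by near-constant probe sets only.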
